A study of Homo sapiens with 18 samples.

Results

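The comparison asked which transcriptional responses to RAF inhibition differed between HT29 and WiDr, a pair of human colorectal adenocarcinoma cell lines. For every gene the change with AZ628 in WiDr was subtracted from the change with AZ628 in HT29. A value above 0 is therefore a response that was higher in HT29, whether the gene rose more or fell less there. The contrast used 12 of the 18 arrays of the series, 3 in each of 4 groups, and it covered 18132 genes. The groups were HT29 treated with vehicle, HT29 treated with AZ628, WiDr treated with vehicle and WiDr treated with AZ628. The other 6 arrays, WiDr transduced with a control shRNA or with an shRNA against IKKalpha, entered the fit for the estimate of spread.

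AZ628 is a small-molecule inhibitor of RAF kinases, and both lines carry an activating BRAF mutation. RAF phosphorylates MEK, MEK phosphorylates ERK, and active ERK drives transcription factors of the ETS and AP-1 families, cell cycle entry and its own feedback inhibitors. WiDr is listed by cell repositories as a derivative of HT29, so the lines share one donor of origin while having been passaged apart. Each line stands for itself alone as a model. The labels name neither the dose of AZ628 nor the time of exposure, and no label states that the 3 replicates of a group were grown apart. The p-values accordingly measure replicate spread that could be purely technical. A difference in handling between the lines cannot be told apart from a difference in response.

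Of the 10 colon epithelium markers measured, 8 were above the detection level on all 12 arrays, EPCAM among them with group means of 13.20 to 13.35 on the log2 scale of the array. KRT19 alone of these markers passed the difference test, at -0.23 (adjusted p = 0.0418), and its call was lost with the replicate block (adjusted p = 0.108) and without single arrays. Of the markers of other cell types, 3 of 6 fibroblast, 4 of 5 leukocyte and 1 of 4 endothelial genes were below the detection level on all 12 arrays, among them COL3A1 (group means 3.06 to 3.26) and PTPRC (3.10 to 3.31). The B cell marker CD79A (6.35 to 6.56) and the endothelial marker VWF (6.18 to 6.48) were above it on all 12, PECAM1 on 11, COL1A1 on 10, KDR on 5 and PDGFRB on 4. LUM, a matrix proteoglycan of fibroblasts, rose from 4.41 to 6.18 in HT29, above the level on the 3 AZ628 arrays, and from 3.13 to 4.38 in WiDr, and its difference of 0.52 missed the threshold (adjusted p = 0.0608). None of the other markers of these cell types passed the difference test either. The summed signal of the fibroblast list was 7.22 to 7.40 log2 with vehicle and 7.59 to 7.74 with AZ628 in HT29, and 7.0 to 7.34 and 7.21 to 7.31 in WiDr; the part of such cells or transcripts in the results was not tested. Arrays of one group correlated at 0.997 to 0.998 over all genes, and arrays of different groups at 0.964 to 0.988. The detection level used below was 5.57 log2, the 95th percentile of the mean signals of 333 olfactory receptor genes, which colon cells are taken not to express. In lysates a change in the share of cells expressing a gene and a change in RNA per cell cannot be told apart.

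Between the lines, 1667 of 18132 genes differed in their response (9.19%; limma, Benjamini-Hochberg adjusted p under 0.05). Of these, 736 lay above 0 (4.06% of all genes) and 931 below 0 (5.13%). After a further quantile normalization the counts were 856 and 900, so the size of the excess below 0 depended on the normalization. The response itself was far wider, with 8079 genes passing in WiDr (44.6%) and 7899 in HT29 (43.6%), of which 1573 (8.68% of all genes) and 1314 (7.25%) reached 2-fold. In WiDr 23.4% of all genes rose and 21.1% fell, and in HT29 22.5% rose and 21% fell. With vehicle alone, 5837 genes differed between the lines (32.2%). Of the 9458 genes that passed in at least 1 line, 17.6% also differed between the lines. Most differences were small. The median absolute difference of the passing genes was 0.507 log2, 89.5% of them stayed under 2-fold, 175 reached 2-fold (0.965% of all genes) and 24 reached 4-fold.

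The commonest kind of difference was one of size within a shared direction. Among the 1667 genes, 982 changed the same way in both lines, and 744 of those (75.8%) changed more in WiDr, 469 rising and 275 falling. The remaining 238 changed more in HT29, 122 rising and 116 falling. Another 351 genes passed in WiDr alone and 242 in HT29 alone, 91 passed in both lines in opposite directions, and 1 passed in neither line by itself. Without each of the 12 arrays in turn, the share changing more in WiDr was 72.8 to 78.1%, and among the genes past 2-fold it was 68%.

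**Figure D1:**
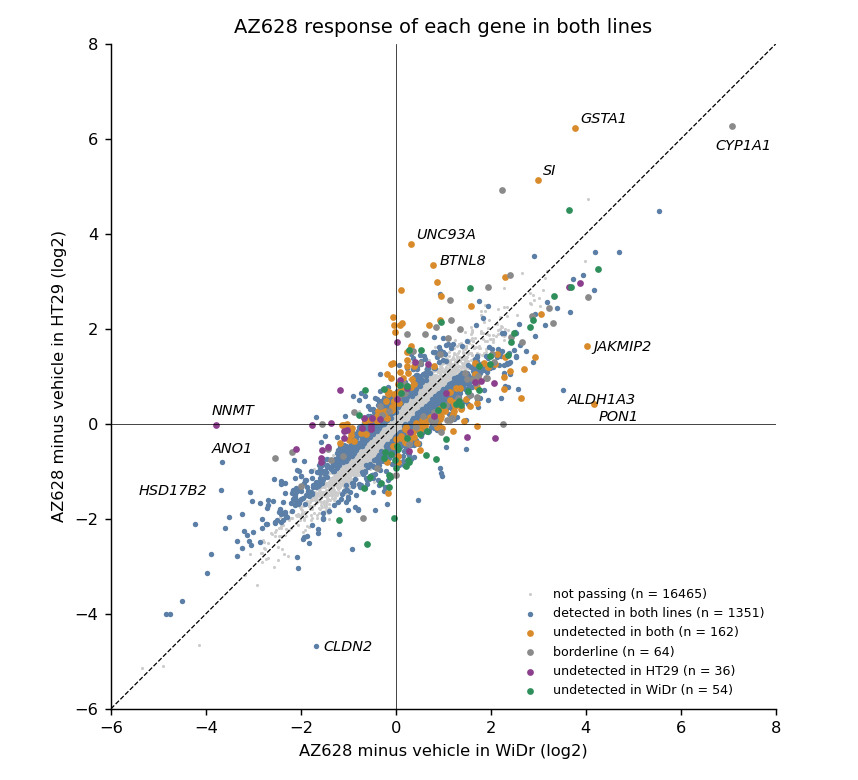
Each point is a gene, with the log2 change with AZ628 in WiDr on the horizontal axis and in HT29 on the vertical axis; coloured points passed the difference test, by detection with vehicle, and the small pale dots did not. Genes on the dashed line responded equally, and genes such as PON1, NNMT, UNC93A and CLDN2 lie far from it.

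The 1667 genes were then split by their vehicle arrays. A gene was called detected in a line when all 3 vehicle arrays lay above the detection level and undetected when all 3 lay at or below it. Genes detected in both lines supplied 1351 of the differences (81%), at a rate of 12.2% of the 11075 such genes. Genes undetected in HT29 only supplied 36 of 100 (36%), and genes undetected in WiDr only supplied 54 of 114 (47.4%). Genes undetected in both lines supplied 162 of 5989 (2.7%), and 64 of 854 borderline genes passed (7.49%). Since the classes and the contrast use the same vehicle arrays, these rates are a description. The median absolute difference was 0.466 log2 for genes detected in both lines, 0.867 and 0.837 for those undetected in HT29 or in WiDr, and 0.739 for those undetected in both. Where one side of a difference is at background, the array compresses it, so log2 differences of undetected genes are given without a fold.

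Among genes detected in both lines, the 10 largest differences above 0 were mostly genes that fell further in WiDr. ANO1, a calcium-activated chloride channel, read 8.26, 8.35 and 8.21 log2 on the HT29 vehicle arrays and 7.40, 7.56 and 7.45 with AZ628. In WiDr it read 9.79, 9.53 and 9.62 with vehicle and 6.03, 5.86 and 6.05 with AZ628. The gene was thus higher in WiDr with vehicle and lower in WiDr with AZ628, with no overlap between groups. The decrease was 12.7-fold in WiDr and 1.75-fold in HT29 (difference 2.87, SE 0.12, adjusted p = 7.77e-11). Its 3 probe sets ranged from 0.04 to 2.87, and with probe sets that can bind several transcripts left out the difference was 0.04 (adjusted p = 0.930).

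HSD17B2, which oxidises estradiol and testosterone to weaker steroids, read 11.47, 11.47 and 11.45 in HT29 with vehicle and 10.14, 10.09 and 9.98 with AZ628. The WiDr arrays went from 10.31, 10.27 and 10.22 to 6.54, 6.65 and 6.59. All HT29 arrays with AZ628 stayed well above all WiDr arrays with AZ628, and the decrease was 12.8-fold in WiDr against 2.63-fold in HT29 (difference 2.28, SE 0.088, adjusted p = 4.87e-11). AKR1B10, an aldo-keto reductase that acts on aldehydes and retinal, showed the same order at the highest levels of the set. Its HT29 arrays read 14.07, 14.08 and 14.05 with vehicle and 12.67, 12.59 and 12.62 with AZ628, and its WiDr arrays 12.66, 12.73 and 12.87, then 9.72, 9.67 and 9.64. It fell 8.42-fold in WiDr and 2.71-fold in HT29, and both of its probe sets gave 1.64 to 1.67.

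CEACAM1, a cell adhesion molecule of the carcinoembryonic antigen family, fell 11.4-fold in WiDr and 3.89-fold in HT29 (difference 1.56, SE 0.083), while its 9 probe sets spread from 0.10 to 1.56 and 3 passed. LGR5, the R-spondin receptor that marks intestinal stem cells, fell to below the detection level in WiDr, where its 3 AZ628 arrays read 4.05, 4.99 and 4.45, and fell 4.55-fold in HT29 (difference 1.41, SE 0.25). The second probe set of LGR5 gave -0.43, and over the mean of both the difference was 0.49 (adjusted p = 0.120). SBSPON and CMTM3 each fell further in WiDr, with differences of 1.40. CMTM3 ended near the detection level in both lines, with AZ628 means of 5.74 in HT29 and 5.61 in WiDr, so background may limit its decreases. MEX3A, an RNA-binding protein, went in opposite directions, rising by 0.60 in HT29 and falling by 0.91 in WiDr. H3C4, a replication-dependent histone H3 gene, was the exception among the 10 in rising in both lines, 6.70-fold in HT29 and 1.89-fold in WiDr.

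CXCL8, the neutrophil chemokine interleukin-8, belongs with a group of neighbouring chemokine genes on chromosome 4. RefSeq promoters (GRCh38.p14) were searched for GGAATTTCC, a form of the NF-kB site, on both strands of the 250 bases before the transcription start. It occurred in 0.413% of 35116 promoters. The 4 chemokine genes looked up, all of which differed between the lines, had it. No other chemokine gene was looked up, so a link between the match and a difference was not tested. The 60-base windows around the match are shown because the differences of these genes had one sign, with the match in capitals.
CXCL8: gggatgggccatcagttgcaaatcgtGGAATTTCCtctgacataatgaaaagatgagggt
CXCL1: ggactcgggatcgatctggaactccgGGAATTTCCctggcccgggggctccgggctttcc
CXCL3: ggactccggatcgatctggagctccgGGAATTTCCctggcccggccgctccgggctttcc
CXCL6: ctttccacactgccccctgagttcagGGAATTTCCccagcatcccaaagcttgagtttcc
The windows lie at chr4:73740452-73740511 (plus strand), chr4:73869289-73869348 (plus), chr4:74038734-74038793 (minus) and chr4:73836563-73836622 (plus). The matches begin 91, 78, 78 and 89 bases before the start. A match is a run of letters and shows no binding, and the part of NF-kB in these differences was not tested.

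All 4 chemokine genes had a difference above 0. CXCL8 read 6.70, 6.98 and 7.34 in HT29 with vehicle and 4.92, 4.96 and 4.80 with AZ628. In WiDr it read 9.51, 9.69 and 9.69, then 5.54, 5.36 and 5.30. The vehicle levels of WiDr were higher than those of HT29, and both lines ended at or below the detection level, so the decreases of 18.7-fold in WiDr and 4.32-fold in HT29 are limited by background. Its 3 probe sets gave 2.09 to 2.71. CXCL1, a chemokine that also attracts neutrophils, read 5.57, 5.99 and 6.04 in HT29 with vehicle and 5.06, 5.32 and 5.44 with AZ628. Its WiDr arrays read 7.86, 7.83 and 7.77 with vehicle and 5.40, 5.57 and 5.91 with AZ628, a difference of 1.60 (SE 0.18). In HT29 CXCL1 was already close to the detection level with vehicle, and both lines ended around or below it. Its decreases are therefore also limited by background. CXCL3 had a difference of 0.91 (SE 0.22) and CXCL6 one of 1.10 (SE 0.16), although CXCL6 did not reach the detection level on any of the 12 arrays. The second probe sets of these 3 genes gave smaller values, 0.55 for CXCL1, 0.29 for CXCL3 and 0.04 for CXCL6. The neighbouring CXCL2, at 0.31, did not pass (adjusted p = 0.385).

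Below 0, the set of 10 held genes that fell further in HT29, genes that rose further in WiDr and 5 genes of opposite sign, described further on. CLDN2, the claudin that forms cation-selective pores in tight junctions, read 11.69, 11.53 and 11.48 in HT29 with vehicle and 7.06, 6.90 and 6.70 with AZ628. In WiDr it read 8.28, 8.27 and 8.43 with vehicle and 7.20, 5.68 and 7.05 with AZ628. The lines were far apart with vehicle and overlapped with AZ628. The decrease was 25.6-fold in HT29 and 3.21-fold in WiDr (difference -2.99, SE 0.36, adjusted p = 3.40e-05). The second AZ628 array of WiDr stood below the others, and without it the difference was -3.47.

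ALDH1A3, an aldehyde dehydrogenase that makes retinoic acid, rose in both lines by very different amounts. Its HT29 arrays went from 6.80, 6.57 and 6.71 to 7.37, 7.46 and 7.38, and its WiDr arrays from 8.39, 8.22 and 8.28 to 11.84, 11.84 and 11.76. The increase was 1.64-fold in HT29 and 11.4-fold in WiDr (difference -2.80, SE 0.11, adjusted p = 7.77e-11), and 4 of its 5 probe sets passed in this direction. BAMBI, a pseudoreceptor that dampens TGF-beta signalling, read 10.59, 10.74 and 10.73 in HT29 with vehicle and 8.24, 7.90 and 8.03 with AZ628. The WiDr arrays of BAMBI went from 6.85, 6.64 and 6.83 to 5.69, 5.94 and 5.91, so the gene fell 6.19-fold in HT29 and 1.90-fold in WiDr. ECI2, an enoyl-CoA isomerase of fatty acid oxidation, rose by 2.57 in WiDr (0.74 in HT29), while its other probe set gave a difference of -0.03. RNF144B, a ubiquitin ligase, rose by 2.21 in WiDr (0.53 in HT29), with other probe sets reaching 0.00.

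**Figure D2:**
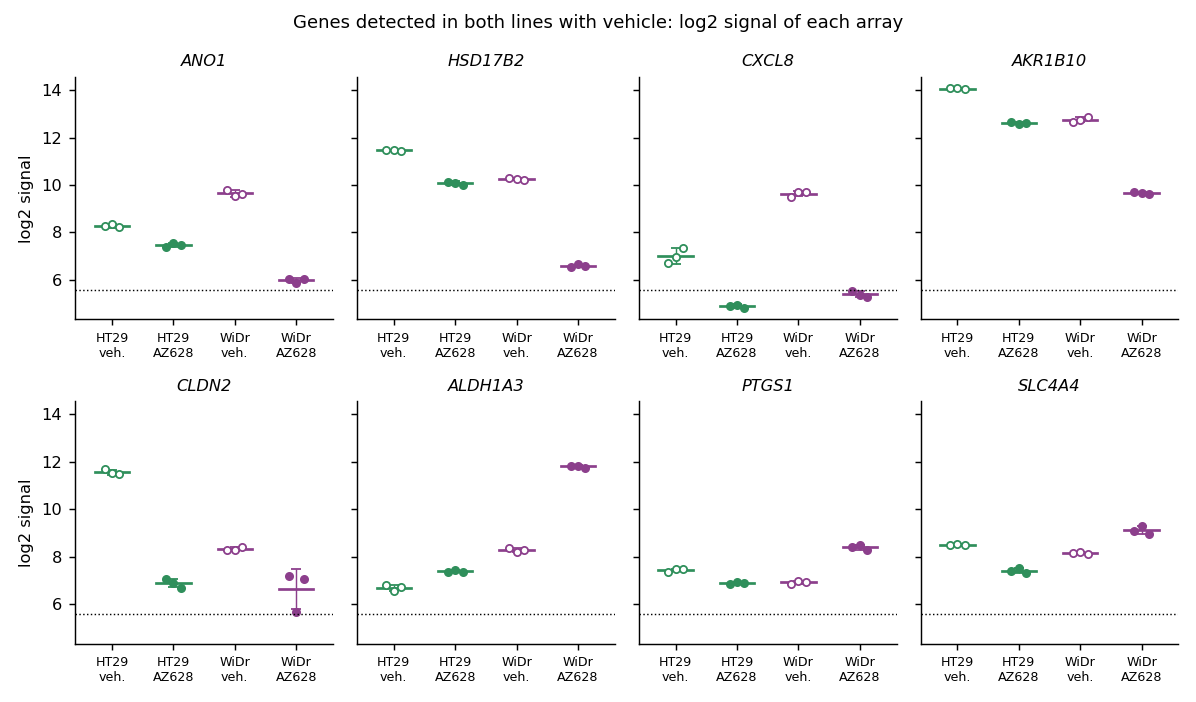
Log2 signal of each array for 8 genes detected in both lines with vehicle; open points are vehicle, filled points AZ628, green HT29 and purple WiDr, bars are means with SD (n = 3) and the dotted line is the detection level. In the upper row WiDr fell further, HSD17B2 for example to 6.54, 6.65 and 6.59, while the lower row holds genes with differences below 0.

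Some genes detected in both lines changed in one line while the other line showed a change under 0.3 log2 with an adjusted p above 0.2. CDKN1A, which encodes the cell cycle inhibitor p21, read 8.04, 8.09 and 7.86 in HT29 with vehicle and 8.86, 8.94 and 8.97 with AZ628. In WiDr its arrays read 7.84, 8.35 and 8.10 with vehicle and 8.26, 8.13 and 8.32 with AZ628, which overlap. It rose 1.90-fold in HT29, and the difference was 0.79 (SE 0.15, adjusted p = 0.00221). CAV2, a caveolin, rose 2.36-fold in HT29 and changed by 0.07 log2 in WiDr, with its 3 probe sets at 1.17 to 1.45.

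FOS, an AP-1 subunit and an immediate early target of ERK, fell in HT29 alone. The HT29 arrays read 8.42, 8.95 and 9.56 with vehicle and 7.32, 7.31 and 7.23 with AZ628. The WiDr arrays read 11.12, 11.05 and 11.30 with vehicle and 11.20, 10.79 and 10.92 with AZ628, higher than any HT29 array and overlapping between treatments. The difference was -1.50 (SE 0.27, adjusted p = 0.00132), and 2 of 4 probe sets passed. EGR1, another immediate early gene, followed the same order, falling by 0.73 in HT29 with a change of 0.32 in WiDr that did not pass (adjusted p = 0.159). RHBDL2, a rhomboid protease, rose 2.79-fold in WiDr with a change of 0.09 in HT29, and all 4 probe sets passed. OVGP1, KCNH2, a voltage-gated potassium channel, and WNT10A, a Wnt ligand, likewise rose in WiDr, by 1.22, 0.87 and 0.86, with HT29 changes of 0.09, -0.13 and -0.08 that did not pass.

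Of the 36 differing genes undetected in HT29 with vehicle, 15 passed in WiDr alone and 12 changed the same way in both lines but more in WiDr. NNMT, which methylates nicotinamide, read 4.25, 4.62 and 3.99 in HT29 with vehicle and 4.31, 4.01 and 4.49 with AZ628. In WiDr it read 8.09, 8.12 and 7.89 with vehicle and 4.29, 4.47 and 4.0 with AZ628. The WiDr arrays thus came down onto the HT29 background, and the difference of 3.76 (SE 0.22, adjusted p = 8.49e-09) was the largest above 0 in this class. FGF19, the ileal hormone that restrains bile acid synthesis, fell in WiDr from 6.82, 6.92 and 6.83 to 4.98, 5.21 and 5.07, while the 6 HT29 arrays lay between 5.10 and 5.38. HOXD13, a posterior homeobox transcription factor, fell by 1.37 in WiDr and stayed below the detection level in HT29. PHLDB2 differed in kind, since it rose in HT29 from 5.32, 4.65 and 5.12 to 6.72, 6.73 and 6.80 and read 5.66 to 6.0 in WiDr throughout. Its 6 probe sets ranged from -0.14 to 1.69, and 3 of them passed.

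Below 0, the 6 named genes of this class all rose in WiDr. LOXL4, a lysyl oxidase-like enzyme of matrix crosslinking, read 5.33, 5.17 and 5.05 in HT29 with vehicle and 4.90, 4.98 and 4.77 with AZ628. Its WiDr arrays went from 7.50, 7.41 and 7.38 to 9.57, 9.41 and 9.57. No WiDr array came near HT29, and the difference was -2.39 (SE 0.11). CYBRD1, the ferric reductase of the duodenal brush border, rose 2.84-fold in WiDr and stayed at 3.38 to 4.13 in HT29. CTSS, a lysosomal cysteine protease, rose in both lines, by 1.80 in WiDr and by 0.90 in HT29, and in HT29 it remained under the detection level. After AZ628, 11 of the 36 differing genes undetected in HT29 with vehicle were detected in WiDr alone, 9 in both lines and 13 in neither.

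In the opposite class, genes expressed in HT29 and undetected in WiDr, 43 of 54 differences lay below 0. Of the 54, 18 passed in HT29 alone, 11 changed the same way but more in HT29, and 17 rose in both lines and more in WiDr. SPP1, the secreted matrix protein osteopontin, read 11.33, 11.38 and 11.33 in HT29 with vehicle and 9.49, 9.30 and 9.29 with AZ628. Its WiDr arrays read 5.15, 5.12 and 4.81 with vehicle and 4.71, 5.08 and 5.14 with AZ628, overlapping and under the detection level. The difference was -1.94 (SE 0.17), and all 6 probe sets passed. SOX8, a transcription factor of the SOX family, fell in HT29 from 7.99, 7.85 and 7.93 to 5.42, 5.21 and 5.53, which brought it to background, and its difference was also -1.94. DACH1, a transcriptional cofactor, was low in WiDr with vehicle at 4.59, 4.62 and 4.63 and rose there to 5.73, 5.62 and 5.62, just past the level. In HT29 it read 8.61 to 8.74 with vehicle and 8.20 to 8.44 with AZ628, a change that did not pass (adjusted p = 0.0685).

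Above 0 in that class, the largest differences came from genes that rose in HT29. LGALS2, the gut lectin galectin-2, went from 6.62, 6.56 and 6.62 to 9.50, 9.39 and 9.51 in HT29 and from 5.13, 4.96 and 4.98 to 6.45, 6.64 and 6.69 in WiDr. Both lines rose without overlap, and the difference was 1.30 (SE 0.098). AMOT, angiomotin, a regulator of the Hippo pathway, went from 7.70, 7.94 and 7.83 to 9.49, 9.09 and 9.56 in HT29. In WiDr it rose by 0.53, with all arrays, at 3.52 to 4.42, under the detection level. The 4 probe sets of AMOT gave differences from 0.18 to 1.85, and 2 of them passed. ABCC2, an apical efflux transporter for conjugates, rose by 0.74 in HT29 and did not reach the detection level in WiDr. ROBO1, a receptor for SLIT ligands, had a difference of 1.21, which became 0.34 (adjusted p = 0.148) without probe sets that can bind several transcripts.

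**Figure D3:**
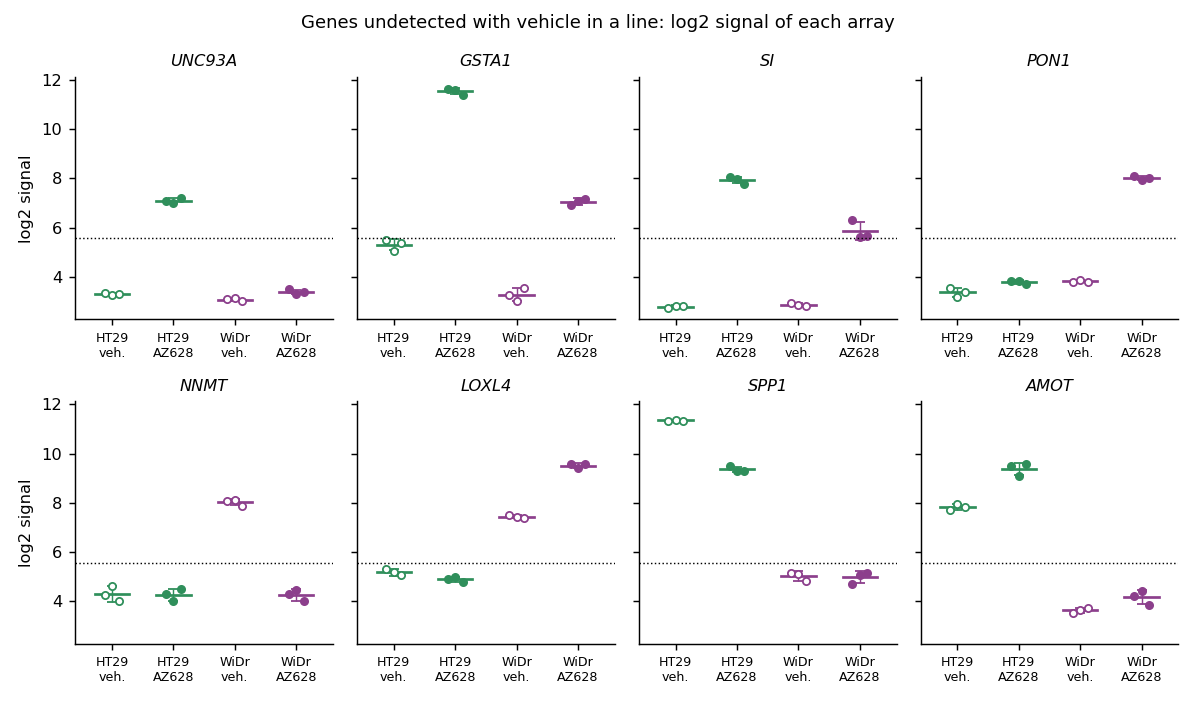
Log2 signal of each array for 8 genes undetected with vehicle in at least 1 line, drawn as for the genes detected in both. UNC93A, GSTA1 and SI were at or below the dotted detection level with vehicle in both lines and rose above it most in HT29, PON1 rose above it in WiDr alone, and the lower row shows genes expressed with vehicle in 1 line.

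Among genes undetected in both lines with vehicle, some were gained in a single line. Of the 162 that differed, 21 were detected with AZ628 in HT29 alone, 22 in WiDr alone and 17 in both, while 85 stayed undetected in both and so differ below the detection level. UNC93A, a transmembrane protein of the UNC93 family, read 3.35, 3.27 and 3.31 in HT29 with vehicle and 7.09, 7.0 and 7.21 with AZ628. In WiDr it read 3.09, 3.13 and 3.00, then 3.49, 3.30 and 3.38. The gene crossed the detection level on all AZ628 arrays of HT29 and on no array of WiDr (difference 3.47, SE 0.12, adjusted p = 1.39e-11). Its only probe set is of the kind that can bind several transcripts, so the difference could not be checked without such probe sets. CYP4X1, a cytochrome P450, went from 3.09, 3.35 and 3.21 to 6.13, 5.97 and 6.03 in HT29 and lay between 2.90 and 3.31 in WiDr. BTNL8, a butyrophilin-like protein of gut epithelium, went from 3.90, 3.77 and 3.53 to 7.22, 6.73 and 7.29 in HT29 and from 3.49, 3.40 and 3.17 to 4.06, 4.14 and 4.24 in WiDr. Its second probe set gave a difference of 0.58 against 2.55 here.

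SI, sucrase-isomaltase, the brush border disaccharidase of absorptive enterocytes, rose above the detection level in both lines. It read 2.72, 2.83 and 2.81 in HT29 with vehicle and 8.05, 7.97 and 7.79 with AZ628. The WiDr arrays went from 2.95, 2.85 and 2.82 to 6.31, 5.64 and 5.65. Levels with vehicle overlapped and levels with AZ628 did not (difference 2.15, SE 0.19, adjusted p = 1.01e-06), and both probe sets passed. The SI gene is a textbook target of the intestinal factor CDX2, whose own response did not pass for a difference (0.26, adjusted p = 0.369). The group means of CDX2 went from 6.47 to 7.07 in HT29 and from 6.20 to 6.54 in WiDr. The part of CDX2 in the SI response was not tested. Its 250 bases before the start (RefSeq, GRCh38.p14, chr3:165078497-165078746, minus strand) are shown with the match to TTTATNG, a CDX-type motif, in capitals on the reverse strand, 52 bases before the start.
SI: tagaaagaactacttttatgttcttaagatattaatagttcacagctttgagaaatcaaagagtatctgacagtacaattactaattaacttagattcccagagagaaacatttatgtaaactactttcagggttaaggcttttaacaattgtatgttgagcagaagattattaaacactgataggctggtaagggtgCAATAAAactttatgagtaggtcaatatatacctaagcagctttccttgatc
The motif was present in 8.93% of all promoters on either strand, and it was not found in the windows of UNC93A, CYP4X1, BTNL8 or GSTA1. The windows of GSTA2, SLC2A2, PON1, JAKMIP2, TAC1 and NEURL1B did not hold it either.

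GSTA1, an alpha-class glutathione S-transferase that conjugates electrophiles, went in HT29 from 5.50, 5.06 and 5.37 to 11.63, 11.61 and 11.41. In WiDr it went from 3.28, 3.01 and 3.55 to 6.92, 7.09 and 7.17. Both lines rose past the detection level, HT29 to a level more than 4 log2 units higher (difference 2.46, SE 0.29, adjusted p = 2.96e-05). GSTA2, a close paralog just outside the class because 1 HT29 vehicle array lay above the level, read 5.28, 5.21 and 5.74, then 10.39, 10.40 and 10.24 in HT29, and 4.72, 4.58 and 4.60, then 6.81, 7.03 and 6.80 in WiDr (difference 2.69, SE 0.20). The values of this pair are uncertain as to which gene they measure. Both probe sets are of the kind that can bind several transcripts, and the other probe set of GSTA1, which is not, gave -0.14 (adjusted p = 0.832). Their promoters are printed to show how alike the copies are, with the 7 positions that differ in capitals and 243 of 250 identical (97.2%; RefSeq, GRCh38.p14, minus strand, chr6:52803817-52804066 and chr6:52763476-52763725).
GSTA1: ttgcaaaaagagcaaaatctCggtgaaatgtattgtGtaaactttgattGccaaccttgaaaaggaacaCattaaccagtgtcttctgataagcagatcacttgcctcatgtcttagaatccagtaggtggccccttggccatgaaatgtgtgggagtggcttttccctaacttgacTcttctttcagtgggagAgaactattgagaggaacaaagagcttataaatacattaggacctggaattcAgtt
GSTA2: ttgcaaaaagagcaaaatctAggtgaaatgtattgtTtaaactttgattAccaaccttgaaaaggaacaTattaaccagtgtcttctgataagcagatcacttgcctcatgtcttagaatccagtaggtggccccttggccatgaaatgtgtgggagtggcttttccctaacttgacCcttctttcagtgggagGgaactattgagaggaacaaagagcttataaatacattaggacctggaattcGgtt

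The gains in WiDr were led by PON1, the paraoxonase that hydrolyses organophosphates and lactones. It read 3.55, 3.17 and 3.39 in HT29 with vehicle and 3.85, 3.82 and 3.70 with AZ628. Its WiDr arrays went from 3.81, 3.87 and 3.80 to 8.09, 7.93 and 8.0, and no other group reached the detection level (difference -3.76, SE 0.12, adjusted p = 5.19e-12). JAKMIP2, a coiled-coil protein, went from 3.33, 3.08 and 3.12 to 7.18, 7.23 and 7.21 in WiDr and from 2.74, 2.48 and 2.52 to 4.14, 3.98 and 4.51 in HT29. SYT17, a synaptotagmin-like protein, was above the level only on the WiDr AZ628 arrays, at 7.47, 7.27 and 7.45 (difference -2.08, SE 0.18). TAC1, the precursor of substance P, rose in WiDr from 3.17, 3.23 and 3.03 to 5.03, 4.82 and 4.71 and so stayed under the level, while its 6 HT29 arrays lay at 2.83 to 2.98. The only probe set of TAC1 can also bind several transcripts.

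Responses of opposite sign were found for 91 genes, 51 of them rising in HT29 and falling in WiDr. Of the 91, 83 were detected in both lines with vehicle. PTGS1, the constitutive cyclooxygenase, fell in HT29 from 7.38, 7.47 and 7.47 to 6.86, 6.94 and 6.91 and rose in WiDr from 6.87, 6.96 and 6.92 to 8.42, 8.50 and 8.28 (difference -2.02, SE 0.084). PTGS2, the inducible cyclooxygenase, did the reverse. It rose in HT29 from 5.30, 4.87 and 5.32 to 6.08, 5.70 and 5.83 and fell in WiDr from 6.69, 6.61 and 7.01 to 5.74, 5.43 and 5.59. Its difference was 1.89 (SE 0.18), and the other probe sets of PTGS2 went down to 0.15, with 1 of 3 passing. PTGS2 was undetected in HT29 with vehicle, and its WiDr arrays with AZ628 lay around the detection level.

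SLC4A4, the sodium bicarbonate cotransporter, fell in HT29 from 8.50, 8.55 and 8.49 to 7.42, 7.52 and 7.30 and rose in WiDr from 8.14, 8.20 and 8.13 to 9.09, 9.30 and 8.97. The lines thus exchanged their order, by a difference of -2.07 (SE 0.11), with 3 of 5 probe sets passing. TGFBR3, the TGF-beta coreceptor betaglycan, fell in HT29 from 9.01, 8.83 and 8.99 to 7.90, 8.04 and 7.79 and rose in WiDr from 6.85, 6.79 and 6.81 to 7.73, 7.88 and 7.69, which closed most of the gap between the lines. THBS1, the matrix glycoprotein thrombospondin-1, fell by 1.60 in HT29 and rose by 0.47 in WiDr. SOAT1, which esterifies cholesterol, had a difference of -1.84, SLC16A7, a monocarboxylate transporter, one of -1.59, and NT5E, the ecto-5'-nucleotidase CD73, one of 1.37. HAS3, a hyaluronan synthase, had a difference of 1.35, but its 4 probe sets ran from -0.29 to 1.35 and their mean gave 0.16 (adjusted p = 0.389). HAS3 and SLC16A7 were undetected in WiDr with vehicle, and HAS3 stayed under the detection level there with AZ628.

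Gene lists were described by counts, beside the 9.19% of all genes that passed the difference test and their median difference of 0.00. Of genes detected in both lines with vehicle, 12.2% passed. Some lists held mainly such genes, 19 of 20 for MAPK, 26 of 27 for DNA replication and 22 of 22 for ribosome biogenesis. The shares of genes that rose or fell are likewise over all genes, detected or not. The 20 MAPK feedback and ERK output genes fell almost throughout, 17 in WiDr (21.1% of all genes fell) and 19 in HT29 (21%), and 6 had a difference above 0 and 1 below (median 0.15), or 3 below with the mean of all probe sets. MYC, the growth-promoting transcription factor, fell by 3.98 in WiDr (3.14 in HT29), and CCND1, cyclin D1, by 3.34 and 2.77. DUSP4, a nuclear ERK phosphatase, fell by 3.13 and 2.33, and ERRFI1, a feedback inhibitor of the EGF receptor, by 1.66 and 1.0. EGR1 was the member below 0 with 1 probe set per gene. Without probe sets that can bind several transcripts, 18 genes of the list were left, 4 above 0 and 2 below. DUSP6, the cytoplasmic ERK phosphatase, read 6.73, 6.42 and 6.34 with AZ628 in HT29 and 7.14, 6.40 and 7.19 in WiDr. Its decreases of 25.4-fold and 17.7-fold did not differ by the test (adjusted p = 0.181); without the second WiDr AZ628 array the difference was -0.78 (adjusted p = 0.00196).

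All 27 DNA replication genes fell in both lines, against 21.1% of all genes in WiDr and 21% in HT29, and 7 fell further in HT29 against 1 that fell further in WiDr (median -0.24). MCM2, a subunit of the replicative helicase, fell by 2.29 in HT29 (1.65 in WiDr), and PCNA, the sliding clamp, by 1.59 and 1.15. PRIM1, the primase subunit, fell by 1.33 and 0.76, whereas the helicase subunit MCM7 fell by 1.29 in HT29 (1.75 in WiDr). None of 23 mitosis genes passed limma's adjusted threshold (median -0.14), 4 having an unadjusted p under 0.05, and none of 12 housekeeping genes did, 2 having such a p; with a trended and robust variance the counts were 0 and 1. Of 22 ribosome biogenesis genes, 21 fell in WiDr and 22 in HT29, beside the same shares of all genes, and 4 had a difference above 0 with none below (median 0.19). Without probe sets that can bind several transcripts, 3 lay above 0 and 1 below. With a trended and robust variance, 6 lay above and 1 below. RRS1, a ribosome assembly factor, fell by 2.43 in WiDr (1.90 in HT29), and NOP2, an rRNA methyltransferase, by 1.85 and 1.42.

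Of 20 phase 1 and aryl hydrocarbon receptor response genes, 5 had a difference below 0 and none above (median -0.15). With the mean of all probe sets 7 lay below and 1 above, and after a further quantile normalization 5 and 1. CYP1B1, a P450 induced by the aryl hydrocarbon receptor, rose 15.4-fold in WiDr and 8.78-fold in HT29. CYP1A1, the classical target of this receptor, rose from 5.01, 5.43 and 5.59 to 11.62, 11.38 and 11.82 in HT29 and from 5.41, 5.64 and 5.36 to 12.63, 12.49 and 12.52 in WiDr, and its difference of -0.81 missed the threshold without any one of 5 arrays, HT29 vehicle replicates 2 and 3, HT29 AZ628 replicate 2, WiDr vehicle replicate 3 and WiDr AZ628 replicate 1 (adjusted p 0.0520 to 0.0630). ALDH3A1, an aldehyde dehydrogenase of the same battery, rose by 1.23 in WiDr (0.32 in HT29). Among 23 conjugating enzymes, 6 lay above 0, NNMT, GSTA1 and GSTA2 among them, and 3 below. Without probe sets that can bind several transcripts, 18 enzymes were left, 4 above 0 and 2 below. UGT2A3, a glucuronosyltransferase, rose by 2.09 in HT29 (0.70 in WiDr), while UGT2B15, which glucuronidates androgens, rose by 5.53 in WiDr (4.48 in HT29).

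NRF2 targets had 2 members above 0 and 3 below among 16. AKR1C1, a ketosteroid reductase, rose by 2.27 in WiDr (1.24 in HT29), and HMOX1, haem oxygenase 1, by 2.18 and 1.24, in contrast to AKR1B10 above. The chemokine and NF-kB target list of 23 had 6 members above 0 and 1 below (median 0.25). CXCR4, the receptor of CXCL12, fell by 4.85 in WiDr (4.01 in HT29). TNFAIP3, the deubiquitinase A20 that restrains NF-kB, was the member below 0, rising by 2.09 in WiDr and by 1.25 in HT29.

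Differentiation lists moved in no single direction. Of 34 absorptive enterocyte genes, SI alone lay above 0 and 4 lay below. FABP1, the fatty acid binding protein of enterocytes, rose by 2.82 in WiDr, where it was undetected with vehicle, and by 2.04 in HT29. CA2, carbonic anhydrase 2, fell by 1.82 in HT29 (0.43 in WiDr). Of 22 goblet and secretory genes, 4 lay above 0 and 1 below. TFF3, the goblet cell trefoil peptide, rose by 1.37 in HT29 (0.61 in WiDr), and RETNLB, a goblet cell antimicrobial peptide, by 1.17 and 0.37. AGR3, a disulfide isomerase of secretory cells, fell by 2.59 in WiDr (1.63 in HT29).

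Among 22 TGF-beta and BMP genes, 3 lay above 0 (1 with the mean of all probe sets) and 5 below, TGFBR3 and BAMBI being the largest, and BMP2, a BMP ligand, rose by 2.58 in HT29 (1.74 in WiDr). Among 18 Notch genes, 3 lay above 0 and 1 below. HES6, a bHLH repressor, rose by 1.62 in HT29 (0.91 in WiDr), and the Notch ligand JAG1 fell by 2.34 in WiDr (1.46 in HT29). Of 12 keratins, 4 lay below 0, the unstable KRT19 among them, and none above. KRT15, a keratin of basal epithelia, fell by 0.49 in HT29 and rose by 1.05 in WiDr. Of 17 lysosome and autophagy genes, 14 rose in WiDr (23.4% of all genes rose) and 12 in HT29 (22.5%), and 5 lay below 0 with none above (median -0.11; 3 with only the 12 arrays in the fit or after a further quantile normalization), WIPI1, a phosphoinositide-binding autophagy protein, rising by 1.33 and 0.80. Of 15 p53 targets, 4 lay above 0 and 3 below (1 below with the mean of all probe sets): CDKN1A and GDF15, a stress-induced cytokine, rose more in HT29, and BBC3, the pro-apoptotic protein PUMA, rose by 1.23 in WiDr (0.69 in HT29).

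Several further lists had passing members on both sides of 0. Of 18 Wnt and stem cell genes, 3 lay above 0, with LGR5 and CD44, a hyaluronan receptor that fell by 2.08 in WiDr (0.98 in HT29), and 3 below. Claudins and tight junction genes had 2 above 0 (4 after a further quantile normalization) and 3 below among 16, and ion channels and transporters 4 and 4 among 22, with 2 below without probe sets that can bind several transcripts. CLDN1, a sealing claudin, rose by 1.21 in WiDr (0.45 in HT29), and KCNE3, a potassium channel subunit, rose by 0.48 in WiDr and fell by 0.41 in HT29. Of 17 homeobox genes, 4 lay above 0 and 2 below, and HOXB8 rose by 0.42 in HT29 and fell by 0.29 in WiDr. Of 20 interferon response genes, 1 lay above 0 and 3 below, and of 17 genes of MHC presentation 4 lay below 0 and none above, or 2 with the mean of all probe sets. HLA-DMA, which loads peptides onto class II molecules, rose by 2.16 in WiDr (1.58 in HT29).

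Nuclear receptors and gut transcription factors had 2 members above 0 and 3 below among 20 (5 below with a trended and robust variance), with NR5A2, an orphan receptor of gut and liver, rising by 1.80 in HT29 (0.99 in WiDr). Proteases and matrix genes had 1 above and 4 below among 21, or 2 below without probe sets that can bind several transcripts. MMP1, the interstitial collagenase, had a difference of -1.27 while below the detection level as a mean in every group. The prostaglandin list of 12 held PTGS2 above 0 and PTGS1 below. EGF receptors and ligands had ERRFI1 above 0 and ERBB3, a receptor of the EGF family, below among 12. ERBB3 turned to 0.20 (adjusted p = 0.493) without probe sets that can bind several transcripts, which are the sole kind for ERRFI1. Glycolysis and hypoxia genes had 3 above and 2 below among 22, and without those probe sets 18 were left and none passed. Cholesterol synthesis had 2 below 0 among 14, SC5D, a sterol desaturase, rising by 1.08 in WiDr (0.40 in HT29), and of 18 ATF4 targets 1 lay above 0. None of 12 cancer-testis and imprinted genes passed limma's adjusted threshold, and 2 had an unadjusted p under 0.05; with a trended and robust variance the count was again 0.

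**Figure D4:**
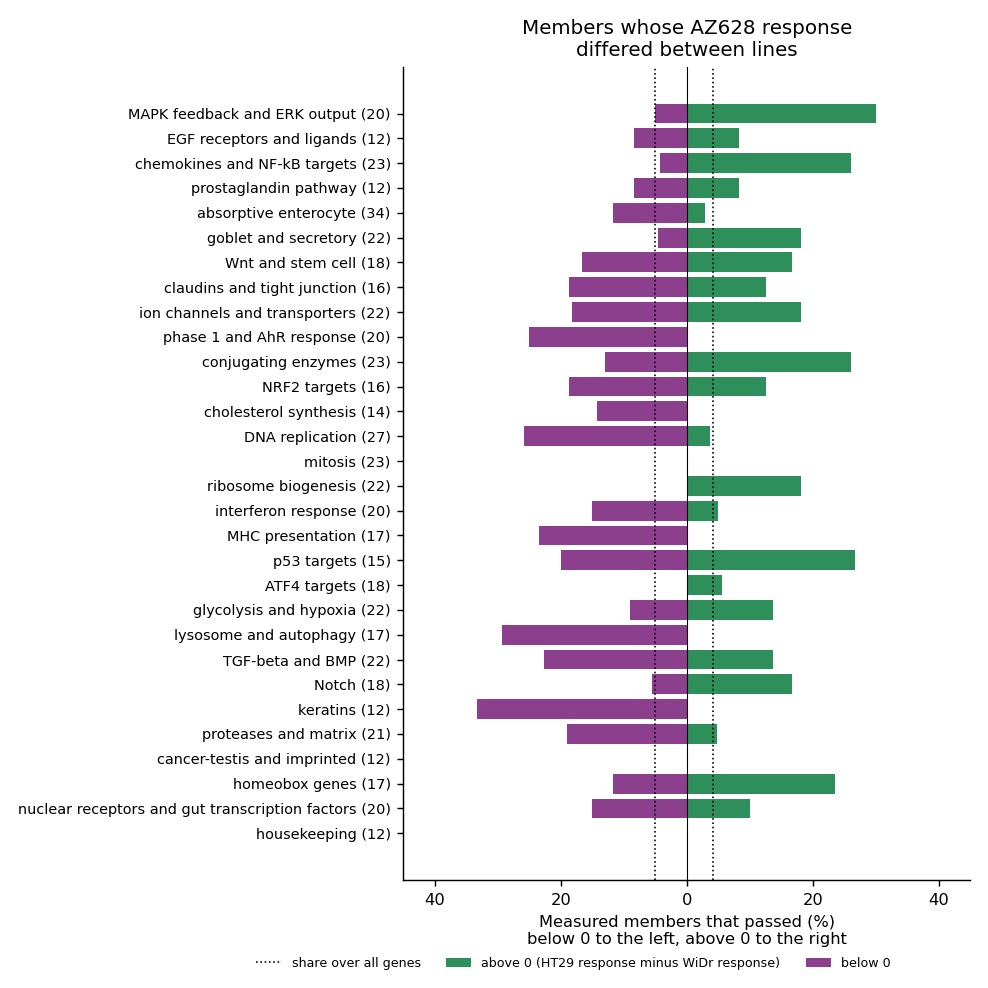
Share of measured members of each list (number in brackets) whose response differed between lines, above 0 to the right in green and below 0 to the left in purple; the dotted lines are the shares over all genes, 4.06% and 5.13%. The phase 1 and AhR response, lysosome and autophagy, keratin, MHC and cholesterol lists have bars to the left alone, the ribosome biogenesis and ATF4 lists to the right alone, and the mitosis, housekeeping and cancer-testis lists have none.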

How the data were processed

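RNA of 18 samples was hybridised to Affymetrix arrays. The deposited values are log2 signals per probe set, made by the authors; per the submitters' processing notes, which give no roles, the tools were RMA, limma and R 3.0.2; the dose, exposure time and scan batches are not given in the sources used here. The labels describe a whole-transcript labelling assay, while the probe set names are those of a 3' expression array. Of 49395 probe sets, 44994 carried 1 gene symbol, 1832 several and 2569 none; the first were kept, and for each gene the probe set of highest average signal on the 18 arrays stood for it (18132 genes). Limma 3.58.1 (R 4.3.3) fitted 6 group means, and p-values of each contrast were adjusted by Benjamini-Hochberg (two-sided, residual df 12). The code was tested on simulated data with 200 changed genes. The number of arrays limits the precision: the median standard error of a difference was 0.123 log2. Figures used matplotlib 3.10.9.

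Named genes were the 10 largest differences in each direction among genes detected in both lines, the 6 largest in each other class, up to 8 of opposite sign, the 6 largest in each direction of 1 line only, and, per list (30 lists), at most 4 that passed and 2 that did not. Genes of a list given with values outside this rule (CCND1, PCNA, UGT2B15, CXCL2, CXCR4 and TNFAIP3) were chosen after their values were seen, as were the histone and borderline genes. The members and lists were chosen with earlier results of these data known. Alternatives changed the probe set rule, the arrays in the fit, the normalization, the filter, the moderation, the detection level and the replicate block, and left out each array. Replicate numbers did not pair the arrays.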

Additional observations from a re-analysis of the deposited data

Results flagged for a closer look

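Of the 91 genes whose AZ628 effects had opposite signs in the lines, with both effects and the difference passing by limma, 8 are given here, those in which the smaller of the effects was largest, provisional loci aside. The differences, HT29 response minus WiDr response on the log2 scale, were 1.89 for PTGS2, 1.35 for HAS3, -2.07 for SLC4A4, -1.99 for TGFBR3, -1.84 for SOAT1, -1.59 for SLC16A7, -1.31 for AKAP19 and 1.37 for NT5E. PTGS2 was undetected in HT29 with vehicle, and HAS3, SLC16A7 and AKAP19 were undetected in WiDr with vehicle. AKAP19 fell by 0.66 in HT29 and rose by 0.64 in WiDr, where all its arrays lay under the detection level. NT5E read 7.97, 8.38 and 8.12 in HT29 with vehicle and 8.85, 8.62 and 8.96 with AZ628, and 10.04, 9.77 and 9.86, then 9.19, 9.33 and 8.98, in WiDr.

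The IKKalpha shRNA arrays of WiDr, which enter no comparison here, held a signal for 2 of the named genes that were undetected in both lines with vehicle. Only named genes that passed the difference test were searched for this. JAKMIP2 averaged 6.61 log2 on these arrays (6.57, 6.71 and 6.56), against 3.48, 3.48 and 3.32 with the control shRNA. CXCL6 averaged 6.77 (6.76, 6.87 and 6.69), against 5.27, 5.63 and 5.59 with the control shRNA.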

How the results depend on the processing

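Leaving out each of the 12 arrays in turn gave 1309 to 1519 differing genes, 7549 to 8136 genes in WiDr, 7350 to 7913 in HT29 and 5136 to 5850 between the lines with vehicle (5837 with all arrays). The class counts were then 1051 to 1228 detected in both, 26 to 36 undetected in HT29, 46 to 59 undetected in WiDr and 129 to 157 undetected in both. Testing all probe sets separately, the counts were 2584, 17960, 17488 and 12131, with 59, 99 and 377 in the last 3 classes; averaging the probe sets per gene put 286 in the last class. At least 2-fold kept 175, 1573, 1314 and 488. Among genes detected in both lines, 599 lay above 0 and 752 below, and after a further quantile normalization 723 and 710. With only the 12 arrays of the contrast in the fit, 1386 genes differed, against 1667 with the shRNA arrays included. Without probe sets that can bind several transcripts 1307 differed, and with a trended and robust variance 1940. The class undetected in both depended on the detection level, with 387 genes at the 99th percentile and 98 at a fixed level of 5. The direction turned for PPARA with the mean of its probe sets (0.0010, adjusted p = 0.998), and without probe sets that can bind several transcripts for GSTA1 (-0.14), CYTH3 (0.0910), ERBB3 (0.20), VEGFA (-0.06) and H4C5 (-0.20), none of these passing; the cause was not tested. Of 169 passing named genes, 124 kept the call under every setting that could be run for them, at least 2-fold aside, and 6 reversed. Some settings could not be run for every gene. UNC93A, H4C8 and TAC1, for example, have no probe set left without those that can bind several transcripts.

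Same-numbered vehicle and AZ628 arrays did not deviate together: the correlations of their deviations were -0.056, -0.233 and -0.102 in HT29 and 0.178, -0.068 and 0.023 in WiDr. With the replicate block, 1350 genes differed, 7928 passed in WiDr, 7697 in HT29 and 4346 between the lines with vehicle, and the classes held 1059, 35, 49 and 148 genes.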

Other observations

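Replication-dependent histone genes, a list chosen after the values were seen, included more differing members than H3C4 and H4C8 of the named set. These genes are transcribed in S phase, and their mRNA ends in a stem-loop with no poly(A) tail. Of 55 such genes measured, 14 had a difference above 0 and 2 below 0 (29.1% passing against 9.19% of all genes, median 0.11). With AZ628, 25 rose and 5 fell in HT29, where 22.5% of all genes rose and 21% fell, and 15 rose and 4 fell in WiDr, where 23.4% and 21.1% did. H4C8 read 5.46, 5.32 and 5.37 in HT29 with vehicle and 7.61, 7.67 and 7.64 with AZ628, while its 6 WiDr arrays lay between 4.74 and 5.19. H2AC7 rose by 2.70 in HT29 (0.94 in WiDr), and H2BC4 by 2.20 and 0.94. The 2 genes below 0, H2BC5 and H2BC12, rose by 3.74 and 1.47 in WiDr and by 3.04 and 0.74 in HT29. Of the 55, 29 were never above the detection level, and near-identical copies may share probes.

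Borderline genes, also chosen after their values were seen, held several large differences. PPARGC1A, a coactivator of mitochondrial biogenesis, rose in WiDr from 5.46, 5.95 and 5.72 to 7.92, 8.01 and 7.96 and lay at 8.25 to 8.49 on all 6 HT29 arrays, so that the lines came close with AZ628. RUNX2, a Runt-family transcription factor, fell in WiDr from 7.13, 6.97 and 6.85 to 4.55, 4.53 and 4.22 and in HT29 from 5.72, 5.44 and 5.59 to 4.72, 4.87 and 5.02. BLNK, a signalling adaptor known from B cells, rose by 4.05 in WiDr (2.67 in HT29). BDNF, a neurotrophin, fell by 1.99 in HT29 (0.70 in WiDr).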
